A study of Mus musculus with 12 samples.

Results

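The genes described here are 10 genes grouped under liver sinusoidal endothelial identity, namely Stab1, Stab2, Lyve1, Kdr, Flt4, Gata4, Clec4g, Oit3, F8 and Ptprb. Not all of them are particular to sinusoidal cells. In liver tissue Ptprb and F8 were also high in other endothelial nuclei, which held part of the Gata4 and Stab1 UMIs too. The set is 10 of the 32285 genes in the deposited matrices. Its genes were chosen by name, with earlier results of these data known, so their falls in culture are not an independent test. Their UMIs (unique molecular identifiers, each marking 1 captured RNA molecule) were read in single nuclei of mouse liver, of the cell suspension made from it and of hepatocyte cultures grown from that suspension, in order to see how far the endothelial nuclei that come along keep this set. Each of 8 wild-type mice gave 3 samples, 24 in all. Liver (L) was a piece of the median lobe taken after blood had been washed out and before collagenase, Cell Suspension (CS) was the collagenase-released cells, and Primary Hepatocytes (PH) were cells of the same animal after 24 hours on collagen. The study's methods give male C57BL/6NTac mice of 10 to 12 weeks, whereas the deposited labels give C57BL6J. No sample type was enriched for endothelial cells, and the endothelial nuclei of PH are those that came along in the hepatocyte cultures.

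Sinusoidal endothelial cells line the liver's capillaries. They lack a continuous basement membrane, are perforated by open pores, and clear hyaluronan, denatured collagen and other waste from the blood through scavenger receptors. When sinusoidal cells are cultured or the liver becomes fibrotic, they are known to lose pores and scavenger genes and to take on features of ordinary continuous capillaries. The set holds the scavenger receptors Stab1 and Stab2, the hyaluronan receptor Lyve1, the C-type lectin Clec4g, the VEGF receptors Kdr (VEGFR2) and Flt4 (VEGFR3), the receptor phosphatase Ptprb (VE-PTP), the transcription factor Gata4, the coagulation factor F8, and Oit3, a secreted protein with a zona pellucida domain.

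Endothelial nuclei were taken as those that the authors' table calls endothelial cells, together with cluster 12 of the nuclei it calls cultured cells. They numbered 5435 of 53467 nuclei. Cluster 3 of the authors' clustering, the largest endothelial cluster, held 1982 nuclei in L, 1068 in CS and 75 in PH. The other endothelial nuclei (clusters 24 and 26) numbered 490 in L, 58 in CS and 1 in PH. Cluster 12 held 1733 nuclei in PH, 26 in CS and 2 in L. Tissue and culture nuclei were thus almost entirely in different clusters, and the clusters were built from the same nuclei's genes, so values set between cluster 3 of L or CS and cluster 12 of PH are a description, with no p-value and no call.

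The PH samples were not uniform in this respect. Cluster 12 made up 100% of the endothelial nuclei of PH mouse 5, 79.2% of those of mouse 4 (76 of 96) and 41.4% of those of mouse 7 (12 of 29), and the rest were nearly all of cluster 3. Whether the cluster 3 nuclei of PH were assigned to the right sample was not tested. The cluster 3 nuclei of PH had a median of 5110 UMIs, against 1351 for cluster 12, and their hashtag assignment margins were alike (median 0.92 and 0.93). The PH sums therefore hold some nuclei that cluster with tissue, and for the members the fold change in all endothelial nuclei is followed by the fitted difference between cluster 3 of L and cluster 12 of PH.

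Cluster 12 carried endothelial markers. The summed level of 12 general endothelial markers was 4201 to 6443 CPM (UMIs of the gene scaled to a common total) over its 8 PH samples, with a median of 5655, and none of the 12 was at 0 in any sample. The 12 include Arhgap31 and Adgrf5, by which the study marked these cells. They are part of the 18 general endothelial genes described below. Sox18, one of the 18 but not of the 12, had 28 UMIs in L and 0 in PH. In cultured hepatocyte nuclei of the same samples the sum was 63.7 to 90.6 CPM. The corresponding median in cluster 3 of L was 7845 CPM. Marker sums of Kupffer cells (0 to 52.1 CPM), leukocytes (0 to 38.4 CPM), stellate cells (10.4 to 135.8 CPM), biliary cells (35.9 to 361 CPM) and mesothelium (0 to 12.8 CPM) were low in cluster 12 of PH, and the Kupffer, leukocyte and mesothelial sums were 0 in at least 1 sample. Hepatocyte markers (8 genes, none at 0) summed to a median of 2757 CPM in cluster 12 and 2745 CPM in cluster 3 of L, against 14228 CPM in hepatocyte nuclei of L and 3250 CPM in cultured hepatocyte nuclei of PH, and their part in the results was not tested. Sums of endothelial nuclei ranged from 95289 UMIs (PH mouse 7) to 2578536 UMIs (L mouse 3), and 71.6% of these UMIs were unspliced, 20.5% spliced and 7.94% ambiguous. Of all nuclei, 337 barcodes occurred in more than 1 pool, but only 1 among endothelial nuclei.

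All 10 genes matched the GRCm38 annotation by identifier. Kdr (ENSMUSG00000062960) lies on chromosome 5 at 75932827 to 75978458, Lyve1 (ENSMUSG00000030787) on chromosome 7 at 110850607 to 110863239 and Clec4g (ENSMUSG00000074491) on chromosome 8 at 3707064 to 3720651. Oit3 (ENSMUSG00000009654), Stab2 (ENSMUSG00000035459) and Ptprb (ENSMUSG00000020154) lie on chromosome 10, at 59422958 to 59441778, 86841198 to 87008025 and 116275523 to 116389535. Flt4 (ENSMUSG00000020357) lies on chromosome 11 at 49609263 to 49652739, and Stab1 (ENSMUSG00000042286) and Gata4 (ENSMUSG00000021944) on chromosome 14 at 31139013 to 31168641 and 63198922 to 63271692. F8 (ENSMUSG00000031196) lies on the X chromosome at 75172715 to 75382615. Antisense genes overlap Clec4g and Stab2, and the coding genes Nt5dc2 and Fundc2 overlap Stab1 and F8 on the other strand. On the same strand, Gm47625 and Gm26495 overlap Ptprb, and neither has a count of its own here. Pseudogenes without such a count overlap Stab2 on the other strand and F8 on both strands. The sources used here do not state whether counting kept to the strand. Reads of these partners therefore cannot be told apart from the members' own. The partners with a count had 38 to 477 UMIs over all endothelial nuclei, and their part in the members' values was not tested.

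RefSeq promoters of the GRCm38.p6 build were given for 6 of the 10 genes (Stab1, Stab2, Kdr, Flt4, Clec4g and F8). The 250 bases upstream of the start are shown for the member with the largest fall between cluster 3 of L and cluster 12 of PH, Clec4g (chr8:3720652-3720901, minus strand), and for the member with the smallest fall that passed the test, Stab1 (chr14:31168642-31168891, minus strand). Capitals mark matches to a GATA motif (AGATAA or AGATAG or TGATAA or TGATAG) or to an ETS motif (AGGAAA or AGGAAG or CGGAAA or CGGAAG) on either strand.
Clec4g: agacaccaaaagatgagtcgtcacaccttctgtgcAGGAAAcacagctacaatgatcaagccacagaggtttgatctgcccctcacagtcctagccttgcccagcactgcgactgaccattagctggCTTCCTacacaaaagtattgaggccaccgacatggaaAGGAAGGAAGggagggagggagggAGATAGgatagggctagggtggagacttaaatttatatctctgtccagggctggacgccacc
Stab1: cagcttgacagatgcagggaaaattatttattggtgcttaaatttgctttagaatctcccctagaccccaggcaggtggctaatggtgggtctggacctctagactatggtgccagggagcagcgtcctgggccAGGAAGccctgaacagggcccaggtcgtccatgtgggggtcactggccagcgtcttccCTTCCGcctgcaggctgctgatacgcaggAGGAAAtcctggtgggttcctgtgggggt
The Clec4g window held 1 GATA match and 4 ETS matches, 2 of which overlap each other. The Stab1 window held no GATA match and 3 ETS matches. A GATA match was present in the windows of 2 of the 6 genes (Clec4g and F8) and an ETS match in 3 (Clec4g, Stab2 and Stab1), and over 27025 promoters of the same length 27.1% held a GATA match and 57.0% an ETS match.

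Between L and PH, 9 of the 10 genes fell in endothelial nuclei, by 1.53-fold for Stab1 up to 7.53-fold for F8, and only Lyve1 did not pass the test. In the same fit 18.4% of the 18279 genes tested were called lower and 15.4% higher, 33.8% in all (edgeR quasi-likelihood test, Benjamini-Hochberg adjusted p under 0.05). Scaling by RLE in place of TMM left the same 9 members called but lowered the share of lower calls among all calls from 54.4% to 43.0%. The median log2 fold change was -2.56 over the members and -0.01 over all genes tested (0.13 with RLE). For 7 members every PH sample was below every L sample, which held for 5.84% of all genes. Between cluster 12 of PH and cluster 3 of L, the fitted difference was below 0 for 9 members, with a median of -3.16 over the members against 0.11 over all genes.

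**Figure D1:**
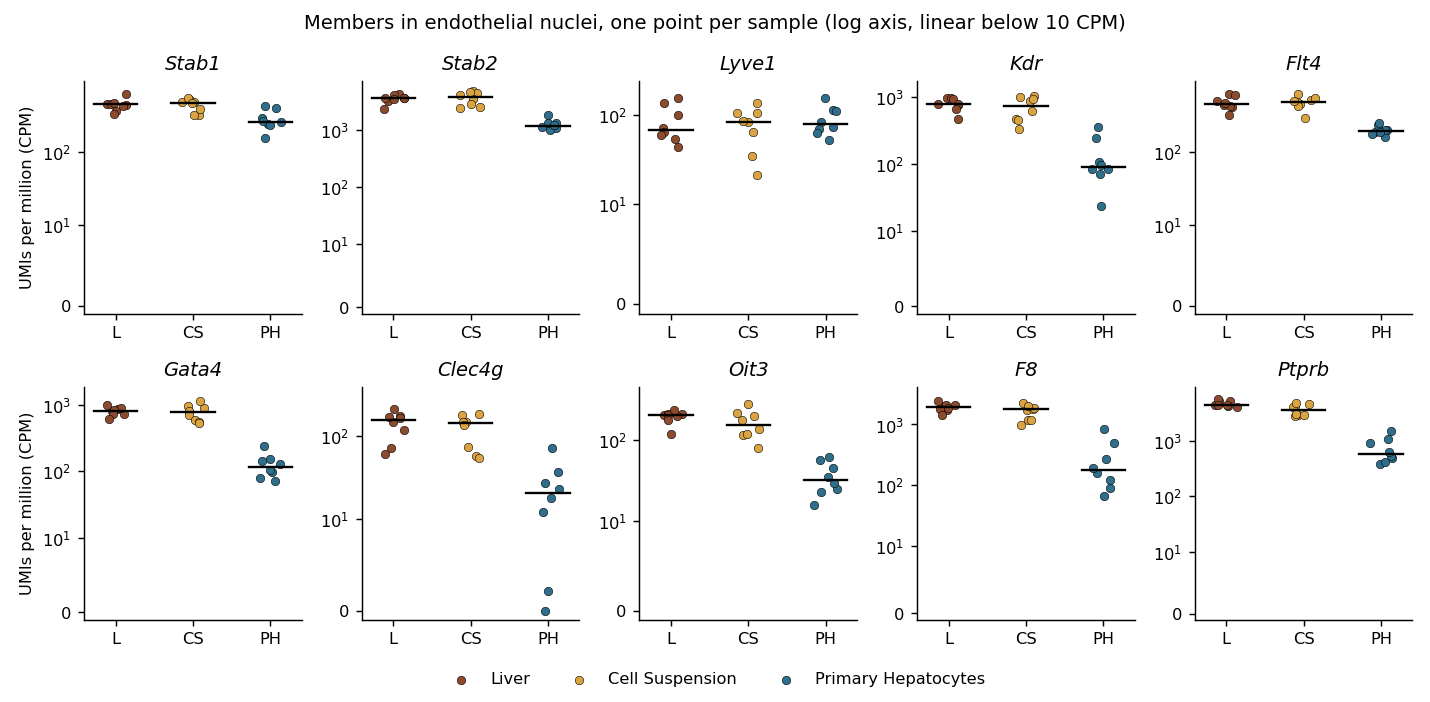
Levels of the 10 genes in endothelial nuclei, as CPM on a log axis that is linear below 10, with one point per sample, 8 samples per type and a bar at the median. All PH samples sit below all L and CS samples for Stab2, Flt4, Gata4, Oit3, F8 and Ptprb, some PH samples overlap for Stab1, Clec4g and, against CS, Kdr, and the 3 groups of Lyve1 overlap throughout.

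Both scavenger receptors fell, Stab2 further than Stab1. Stab2, the main endocytic receptor for hyaluronan, was at 2345 to 4261 CPM in L (median 3619), 2410.3 to 4723 CPM in CS (median 3825) and 977 to 1853 CPM in PH (median 1177). Every PH sample was below every sample of the other types, and the highest of them, mouse 7, was the one with the most cluster 3 nuclei relative to cluster 12. The log2 fold change of PH against L was -1.50 (SE 0.17, adjusted p = 8.97e-10, edgeR), and it was -2.04 in cluster 12 against cluster 3, so Stab2 RNA was 4.12-fold lower and at a median of 1062 CPM in cluster 12, against 23.0 CPM in cultured hepatocyte nuclei of the same samples. Its relative Stab1, a scavenger receptor also found on macrophages, was at 327 to 621 CPM in L (median 445), 316 to 540.5 CPM in CS (median 472) and 152 to 426 CPM in PH (median 259). Of the 8 PH samples, 6 were below every L sample, and the other two overlapped. The log2 fold change was -0.61 (SE 0.16, adjusted p = 0.00292), and -0.59 between clusters. Without mouse 2, whose L sample was the highest, it was -0.42 and did not pass the test (adjusted p = 0.0571), and with spliced UMIs alone it was -0.48 (adjusted p = 0.108).

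Lyve1, a hyaluronan receptor shared with lymphatic endothelium, stood apart from the other 9. It was at 44.2 to 155 CPM in L (median 67.9), 21.1 to 136 CPM in CS (median 84.2) and 52.0 to 155 CPM in PH (median 78.4), and all 3 groups overlapped. The log2 fold change of PH against L was 0.14 with an interval of 2 SE from -0.35 to 0.63 (adjusted p = 0.698), and in cluster 12 against cluster 3 it was 0.15. In cluster 12 itself Lyve1 had a median of 103 CPM, against 1.06 CPM in cultured hepatocyte nuclei. Its direction depended on which RNA was counted, as described with the spliced shares.

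Of the VEGF receptors, Kdr, the main receptor for VEGF-A, fell further than Flt4, which binds VEGF-C and VEGF-D, by more than 2 combined SE (taking the 2 genes as independent). Kdr was at 467 to 966 CPM in L (median 777), 327 to 1012 CPM in CS (median 733) and 23.5 to 349 CPM in PH (median 90.7). All PH samples were below all L samples, while mouse 7 of PH overlapped CS. Its log2 fold change was -2.78 (SE 0.30, adjusted p = 3.06e-10) in all endothelial nuclei and -4.47 in cluster 12 against cluster 3, a 22.2-fold difference, and it was -3.41 in all endothelial nuclei without PH mice 4 and 7, a setting chosen after seeing the data. Flt4 was at 321 to 606 CPM in L (median 449), 288 to 619 CPM in CS (median 485) and 159 to 246 CPM in PH (median 193), and no PH sample overlapped L or CS. Its log2 fold change was -1.24 (SE 0.15, adjusted p = 6.61e-09), and -1.49 between clusters. Ptprb, a phosphatase that restrains TIE2, VEGFR2 and VE-cadherin signalling, was at 4002 to 5680.0 CPM in L (median 4408), 2736 to 4705 CPM in CS (median 3515) and 377 to 1486 CPM in PH (median 578). Its groups did not overlap between PH and either other type, and its log2 fold change was -2.68 (SE 0.21, adjusted p = 1.66e-13), and -3.70 between clusters.

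Gata4, which specifies the sinusoidal over the continuous type of liver endothelium, was at 605 to 973 CPM in L (median 814), 534 to 1136 CPM in CS (median 763) and 71.9 to 242 CPM in PH (median 118), and no PH sample overlapped L or CS. Its log2 fold change was -2.76 (SE 0.19, adjusted p = 7.96e-15), and -3.37 between clusters. In cluster 12 its median was 74.5 CPM, while cultured hepatocyte nuclei had 34.2 CPM and hepatocyte nuclei of L 53.9 CPM. The study describes Gata4 as present in endothelial cells of Liver and Cell Suspension alone. Here cluster 12 of PH held 228 Gata4 UMIs, and none of its samples was at 0. What part of these UMIs came from other cells was not tested.

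Clec4g, a lectin of liver and lymph node sinusoids, was all but undetected in cluster 12. In all endothelial nuclei it was at 61.1 to 212 CPM in L (median 158), 55.2 to 188 CPM in CS (median 143) and 0 to 72.0 CPM in PH (median 20.4). In PH, 7 of 8 samples were below every L sample, and the exception, mouse 4, had 20 cluster 3 nuclei among 96. The log2 fold change was -2.87 (SE 0.37, adjusted p = 3.11e-08). Cluster 12 of PH held 8 Clec4g UMIs among 2940868, or 2.72 CPM with an exact Poisson interval from 1.17 to 5.36 CPM that covers counting error only, and 4 of its 8 samples were at 0. In cluster 3 of L the median was 173 CPM, and in cultured hepatocyte nuclei of PH 0.466 CPM. The fitted difference between the clusters was 53.9-fold (log2 -5.75).

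Oit3 and F8 completed the set. Oit3 was at 117 to 229.7 CPM in L (median 204), 78.2 to 275 CPM in CS (median 154) and 15.5 to 60.8 CPM in PH (median 31.9), with a log2 fold change of -2.44 (SE 0.23, adjusted p = 7.21e-12), and -2.95 between clusters. F8, whose main source in the body is this endothelium, was at 1409 to 2457 CPM in L (median 1939), 989 to 2249 CPM in CS (median 1775) and 65.3 to 851 CPM in PH (median 176). Neither gene's PH samples overlapped L or CS. The log2 fold change of F8 was -2.91 (SE 0.31, adjusted p = 2.55e-10). It was -3.33 without PH mouse 7, which was the highest PH sample, and -5.08 between clusters, a 33.8-fold difference. In cluster 12 F8 had a median of 60.8 CPM, against 14.2 CPM in cultured hepatocyte nuclei.

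**Figure D2:**
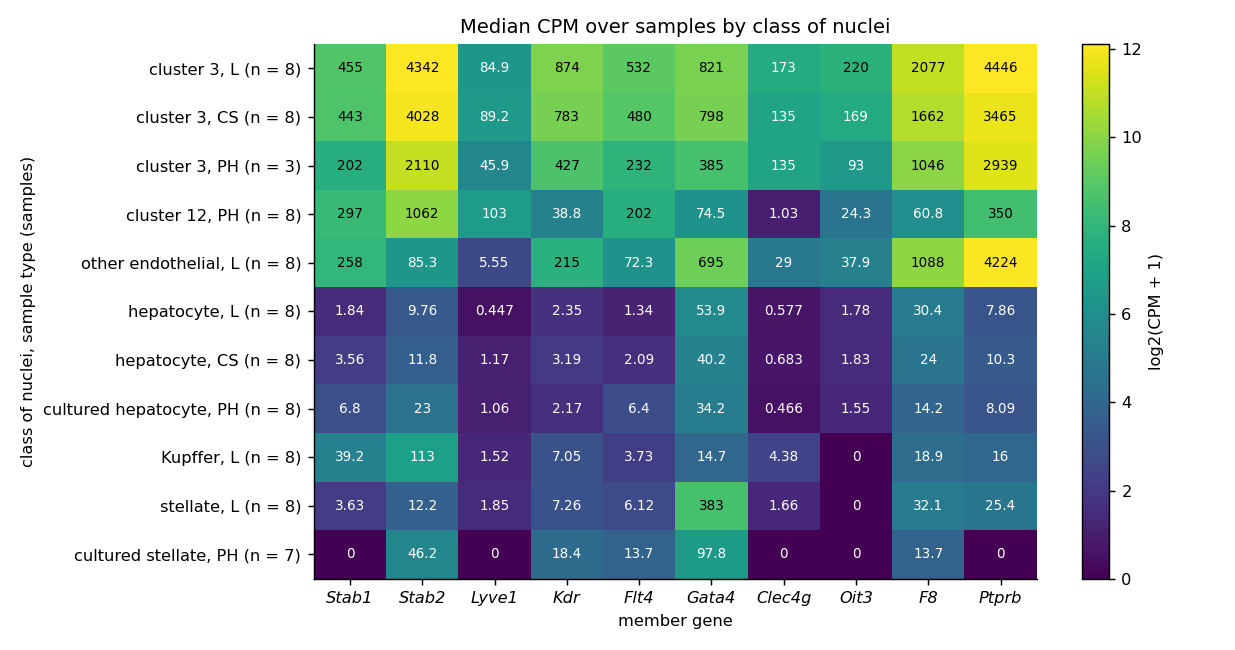
Median CPM over samples (numbers in the cells, colour as log2(CPM + 1)) of the 10 genes by class of nuclei and sample type, with the number of samples that had at least 10 nuclei of the class. All 10 genes are high in cluster 3 of L and CS, Clec4g is near 1 CPM in cluster 12, and Gata4 is also high in stellate nuclei of L.

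The spacing of the falls depended on the nuclei taken. F8 and Clec4g changed places, as did Gata4 and Ptprb, in each case within 2 combined SE. The combined SE takes the values of 2 genes as independent, although the same samples gave both, so these gaps are a rough guide. In all endothelial nuclei F8, Clec4g, Kdr, Gata4, Ptprb and Oit3 (log2 fold changes of PH against L from -2.91 to -2.44) did not differ from their neighbours in the order beyond 2 combined SE. They were followed, with gaps beyond 2 SE, by Stab2 and Flt4 (-1.50 and -1.24, within 2 SE of each other), then Stab1 and then Lyve1. Between clusters 12 and 3 the differences spread out, from -5.75 for Clec4g, -5.08 for F8 and -4.47 for Kdr, through Ptprb, Gata4 and Oit3 (-3.70 to -2.95), to Stab2 at -2.04, Flt4 at -1.49 and Stab1 at -0.59.

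**Figure D3:**
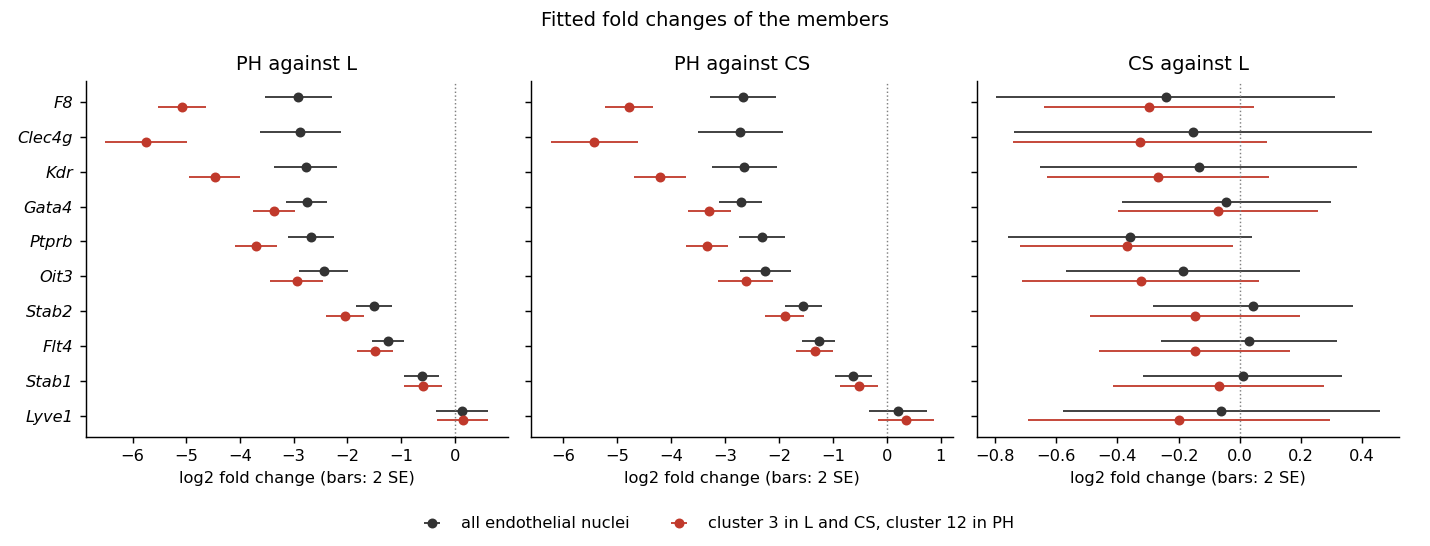
Fitted log2 fold changes of the 10 genes in each comparison, with bars of 2 SE, for all endothelial nuclei (black) and for cluster 3 in L and CS against cluster 12 in PH (red). In PH the values between clusters lie further below 0 for all genes apart from Stab1 and Lyve1, and between CS and L the bars include 0 for all genes apart from Ptprb within cluster 3.

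PH also held 75 cluster 3 nuclei, and 3 samples had at least 10 of them. Over those 3 samples, the median Clec4g level was 135 CPM and the median Kdr level 427 CPM, against 173 and 874 CPM in cluster 3 of L. Kdr in cluster 12 was at 38.8 CPM. Stab1 and Lyve1 went the other way, at 202 and 45.9 CPM in cluster 3 of PH and at 297 and 103 CPM in cluster 12. Their cluster 3 values rest on few UMIs. Over all PH samples, cluster 12 held 332 of the 352 endothelial UMIs of Lyve1 and 1033 of the 1122 of Stab1. The other endothelial nuclei of L had medians of 85.3 CPM of Stab2 and 5.55 CPM of Lyve1 but 4224 CPM of Ptprb and 1088 CPM of F8. Gata4 and Stab1 were not confined to cluster 3 either. Of the UMIs over all endothelial nuclei of L, cluster 3 held 5841 of 6976 for Gata4 and 3246 of 3709 for Stab1. For F8 it held 15044 of 17178, and for Stab2 30422 of 30568. No test was made among these classes.

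Nuclei with at least 500 UMIs were thinned to 500, and those below were left out (1066 of 1068 were used in cluster 3 of CS). The mean number of members with a UMI was then 3.60 per nucleus in cluster 3 of L, 3.08 in cluster 3 of CS and 0.864 in cluster 12 of PH. In cluster 12, 39.9% of 1733 nuclei had no member UMI and 21.4% had 2 or more, against 0.959% and 94.7% in cluster 3 of L. In cultured hepatocyte nuclei thinned likewise, 94.9% had none and 0.156% had 2 or more. These shares depend on the depth chosen. Thinned to 300 UMIs, 55.3% of cluster 12 nuclei had none and 10.6% had 2 or more, against 3.38% and 82.9% in cluster 3 of L. Without thinning, 15.1% of cluster 12 nuclei and 0.151% of cluster 3 nuclei of L had none, at median depths of 1351 and 3131 UMIs. By gene, a Stab2 UMI was found in a median of 33.2% of thinned cluster 12 nuclei per PH sample against 78.2% of cluster 3 nuclei per L sample, a Ptprb UMI in 13.2% against 86.7%, and a Lyve1 UMI in 4.72% against 4.25%.

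**Figure D4:**
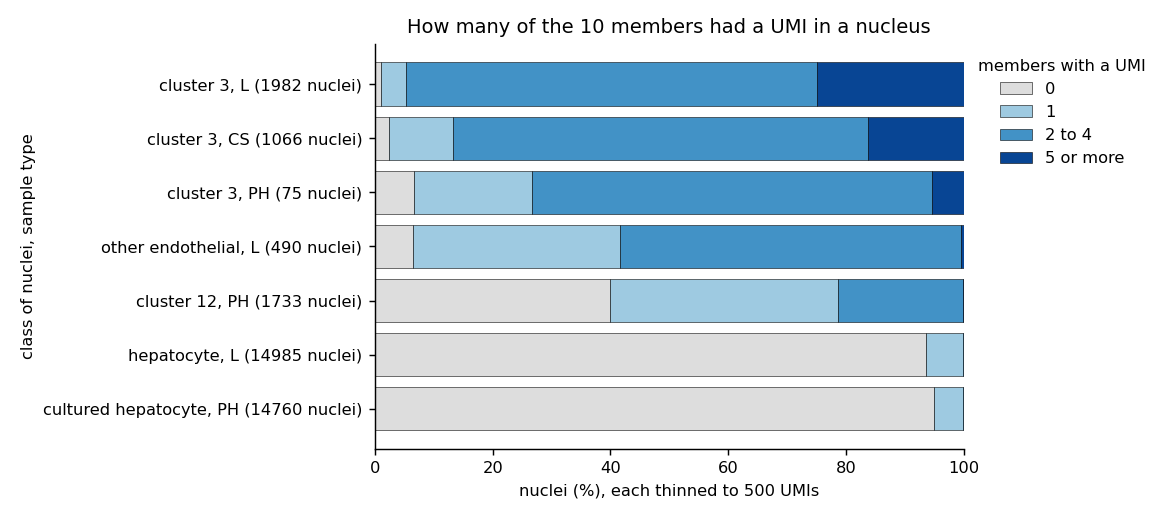
Share of nuclei, each thinned to 500 UMIs, by how many of the 10 genes had a UMI, for classes of nuclei and sample types (number of nuclei in brackets). Cluster 12 of PH, with 39.9% of nuclei at 0, lies between cluster 3 of L (0.959%) and cultured hepatocyte nuclei (94.9%).

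Against CS, the same 9 genes fell in PH, where 10.7% of all genes were called lower and 9.33% higher, 20% in all. The log2 fold changes ran from -0.62 (SE 0.17, adjusted p = 0.00542) for Stab1 to -2.72 (SE 0.40, adjusted p = 6.93e-07) for Clec4g, and Lyve1 was at 0.20 (SE 0.27, adjusted p = 0.679). The median was -2.29 over members and 0.07 over all genes, and 6 members did not overlap (1.88% of genes). Between clusters the median was -2.96 over members and 0.22 over all genes. The comparisons with L and with CS share the PH samples, so they are given side by side and not as repeats.

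Between L and CS, that is before and after collagenase, no member was called. None of the 10 genes passed the edgeR test, against 1.87% of genes called lower and 2.03% higher, 3.9% in all (scaling by RLE lowered the share of lower calls from 47.9% to 31.0%), and none had an unadjusted p under 0.05, against 16.4% of genes. No member was lower in CS without overlap of the samples (0.525% of genes were). DESeq2 also called none. The log2 fold changes ran from -0.36 for Ptprb (interval of 2 SE from -0.76 to 0.04) to 0.04 for Stab2 (-0.28 to 0.37), and the widest interval was that of Clec4g (-0.74 to 0.43). Within cluster 3 alone none was called (1.01% of genes were lower, 1.8% higher and 2.81% called in all) and none was lower without overlap (0.353% of genes), but all 10 values were below 0, with a median of -0.23 against -0.11 for all genes, and Ptprb had an unadjusted p of 0.0386 (adjusted 0.299), where 2638 of 17555 genes were under 0.05.

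The pools in which samples were sequenced do not balance the sample types. Pools 1 and 6 held no PH and pools 3 and 4 no L, and only pools 2 and 5 held both. With so few samples many genes do not overlap, so each count is given with the share of all genes tested. In pool 2 all 10 members were lower in the 1 PH sample than in the 1 L sample (47.8% of genes), and in pool 5, 9 were lower in both PH samples than in the 1 L sample (38.9%). Against CS, all PH samples were below all CS samples for 9 members in each of the pools 2 (30.1% of genes), 3 (28.8%), 4 (17.6%) and 5 (30.5%). Between CS and L the pools differed, with the mean in CS lower for 9 members in pool 5 (62.3% of genes) and pool 6 (60.4%), 7 in pool 2 (45.8%) and 1 in pool 1 (60.8%). With the pool as a term of the model the same number of members, 9, were called lower in PH against L (10.5% of genes) and against CS (9.29%), and Lyve1 was at -0.44 without passing.

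The share of spliced RNA was higher in CS and PH than in L. Over all genes, spliced UMIs made up 18.0% ± 2.02 of spliced plus unspliced UMIs in L, 25.8% ± 3.39 in CS and 31.4% ± 3.59 in PH (mean ± SD, n = 8 each). Each of the 8 CS and 8 PH samples was above every L sample (two-sided exact permutation test, p = 0.000155 for both, the smallest this design allows), and PH was above CS by 5.54 points (exact permutation p = 0.00917). The same test was made for every gene with enough UMIs, with adjustment over all of them. Between L and PH the share rose for 4 of the 9 members with enough UMIs, namely Ptprb, Stab1, Stab2 and Lyve1, where 26.3% of 5807 genes rose, so a rise was common among all genes. Between L and CS it rose for 2 members, Ptprb and Oit3, and for 3.62% of 4612 genes. Between CS and PH no member and 0.0% of 4330 genes passed, and at an unadjusted p under 0.05 there were 502 genes, Lyve1 among them. Ptprb went from 18.1% ± 2.52 in L to 25.5% ± 2.12 in CS (8 of 8 samples above every L sample, adjusted exact permutation p = 0.0341) and was at 24.6% ± 3.30 in PH (adjusted p = 0.0115, exact permutation). F8 was at 13.7% ± 1.43 in L, 17.4% ± 4.21 in CS and 14.1% ± 1.82 in PH, and none of its differences passed.

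Of the 9 genes, Lyve1 had the largest difference in this share between L and PH. The share was 60.5% ± 10.9 in L, 66.8% ± 14.1 in CS (n = 7) and 85.3% ± 8.28 in PH (n = 7), a difference of 24.8 points between L and PH (adjusted exact permutation p = 0.0115, 6 of 7 PH samples above every L sample). In UMIs, 456 were spliced and 242 unspliced in L, and 291 and 46 in PH. Counted by unspliced UMIs alone, Lyve1 fell in PH against L, with a log2 fold change of -1.0 (adjusted p = 0.0154), while by spliced UMIs alone it was at 0.03 (adjusted p = 0.948). With unspliced UMIs alone all 10 members were called lower, where 16.8% of 15349 genes were, but Clec4g had only 55 such UMIs in L and 3 in PH. The spliced share of Clec4g was not tested, since 1141 of its 1295 UMIs in L were of ambiguous state. Paired by mouse and adjusted over the members' tests, none of these differences in share passed. The unadjusted exact paired p was 0.00781, the smallest that 8 pairs allow, for Ptprb (L against CS and L against PH), Oit3 and Kdr (both L against CS). Between L and PH it was 0.0156 for Stab1 (8 pairs), 0.0156 for Lyve1 (7 pairs) and 0.0312 for Stab2. The value of Lyve1 is the smallest that 7 pairs allow. Between L and CS it was 0.0391 for Flt4 and F8 and 0.0469 for Stab1.

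**Figure D5:**
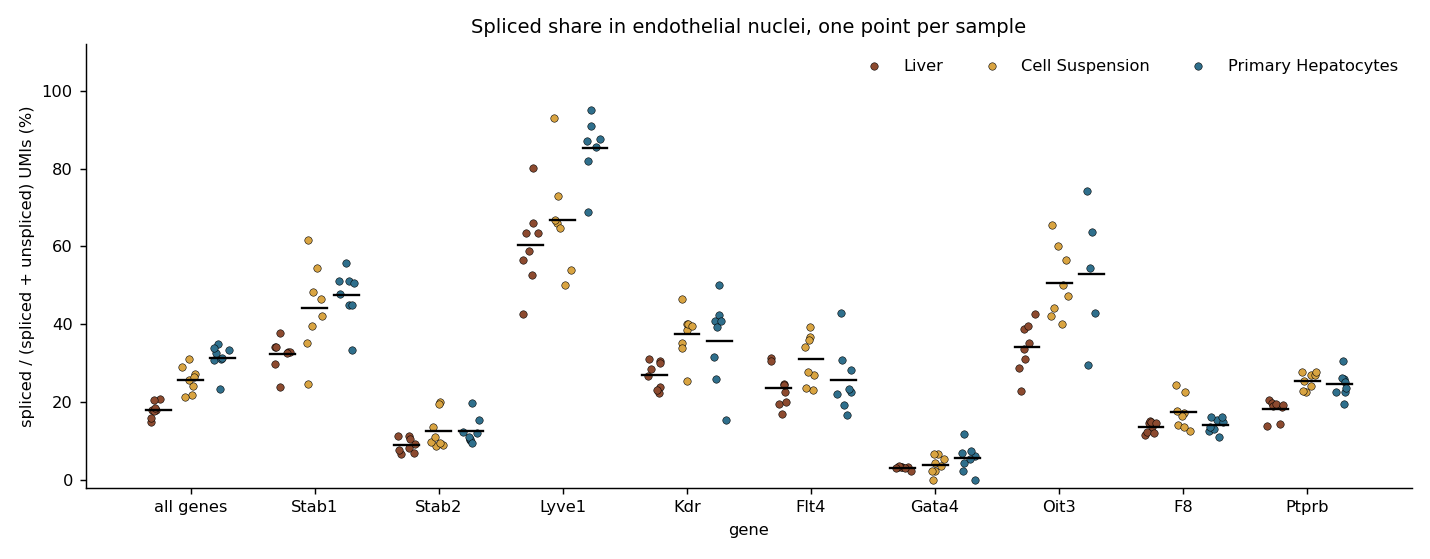
Spliced share of spliced plus unspliced UMIs in endothelial nuclei, in percent, for all genes and for the 9 members with at least 10 such UMIs in enough samples, with one point per sample and a bar at the mean. The share over all genes is higher in CS and PH than in L, and Lyve1 in PH (mean 85.3%) is the highest of the groups shown.

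Other genes of sinusoidal identity fell as well. Of 20 such genes, 17 fell and none rose in PH against L, where 18.4% of all genes fell and 15.4% rose, with a median log2 fold change of -1.64 against -0.01 over all genes. All 20 fitted differences between clusters were below 0 (median -1.69, against 0.11 over all genes). They include scavenger and Fc receptors (Mrc1 at -2.53, Fcgr2b at -2.44) and the angiocrine factors Wnt9b and Rspo3, which pattern the hepatocytes around the central vein and fell most. Wnt9b went from 59.6 ± 33.2 CPM in L to 2.53 ± 5.53 CPM in PH (log2 fold change -4.96, SE 0.56, adjusted p = 1.00e-09, mean ± SD, n = 8). Rspo3 went from 553 ± 243 to 45.9 ± 36.7 CPM (log2 fold change -3.40). In UMIs, Rspo3 had 5225 in L, 365 in CS and 198 in PH. Wnt9b had 552, 62 and 6, the last in 3 samples. The endothelial sums held 8793384, 2520598 and 3368641 UMIs in these types. Relative to depth, both genes were thus already lower in CS than in L. Between clusters 12 and 3, which leaves out clusters 24 and 26 and also the cluster 3 nuclei of PH, the differences were -0.83 for Rspo3 and -3.45 for Wnt9b. Hgf, Dll4 and Cd36 did not pass the test, at -0.02, -0.24 and -0.38.

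Of 14 genes of continuous capillaries, 3 rose and 6 fell in PH against L (median -0.54), where 15.4% of all genes rose and 18.4% fell (median -0.01). Between clusters 7 of 13 differences were above 0 (median 0.31, against 0.11 over all genes), and nothing particular to this list is read from these counts. Esm1, a tip cell proteoglycan, had the largest fitted rise of the list (log2 fold change 5.69), with 11 UMIs over the L sums and 310 over the PH sums, a ratio of CPM of 73.6 (exact interval 40.5 to 149, counting error only). Apln, a ligand of the apelin receptor, had 0 UMIs over the L sums and 33 over the PH sums (in 7 of 8 samples), at least 28.7-fold higher against a floor of 3 counts over the L sums, while the exact lower limit of the ratio of CPM, which also covers counting error in PH, was 22.1. Vwf, which carries factor VIII in plasma and marks larger vessels, depended on the nuclei taken. It fell in all endothelial nuclei (log2 fold change -3.43, adjusted p = 4.40e-12), while its mean was 20.7 CPM in cluster 12 of PH and 7.63 CPM in cluster 3 of L, which leaves out the other endothelial nuclei of L. Vwf had 2017 UMIs in L, 80 in CS and 73 in PH. Relative to the depths given above, it was already lower in CS than in L. Cav1 was barely detected, with 20 UMIs in L and 1 in PH, a ratio of 0.131 (exact interval 0.00315 to 0.816).

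Of 18 general endothelial genes, 11 fell and 1 rose in PH against L (18.4% and 15.4% of all genes), with a median log2 fold change of -1.17 against -0.01 over all genes. In all endothelial nuclei 4 of the 18 values were above 0, and between clusters 6 were (median -1.17). Eng, a co-receptor of BMP9 signalling, went from 959 ± 104 to 260.3 ± 69.7 CPM (log2 fold change -1.93, SE 0.17), and Sox18, an endothelial transcription factor, had 28 UMIs in L and none in PH, at least 3.58-fold lower against a floor of 3 counts over the group, while the exact upper limit of the ratio of CPM, which also covers counting error in L, was 0.368. S1pr1, the sphingosine-1-phosphate receptor, rose from 27.6 ± 8.36 to 174 ± 59.1 CPM (log2 fold change 2.66, SE 0.22, adjusted p = 2.96e-13). Arhgap31 and Adgrf5, by which the study marked cultured endothelial nuclei, were at -0.03 and -0.09 without passing the test, as were Pecam1 (0.20) and Cdh5 (0.45). The differences of Pecam1 and Cdh5 between clusters were 0.66 and 0.79. The study describes Arhgap31 and Adgrf5 as still expressed in its cultured endothelial cells, but at much lower levels. The measures differ, since the study compared single endothelial cells that it had clustered again. The values here are of sums per sample, and those of PH include some cluster 3 nuclei. The study also names the members Ptprb and Stab2 as markers of its cultured endothelial cells, with diminished expression.

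Of 15 ligands and partners of the members, 4 rose and 5 fell in PH against L (median -0.30), where 15.4% of all genes rose and 18.4% fell (median -0.01). Between clusters 9 of 15 differences were above 0 (median 0.70, against 0.11 over all genes), and these counts too are read as a description. Among the ligands, Vegfa rose by a log2 fold change of 1.83 and Angpt2, a ligand of TIE2, by 3.01, while the Flt4 ligand Vegfc fell by 1.82 on the log2 scale. Pgf, a ligand of Flt1, rose from 2 UMIs in all L sums to 141 in PH, a ratio of CPM of 184 (exact interval 50.0 to 1534). The Gata4 cofactor Zfpm2 fell from 654 ± 86.8 to 135 ± 68.0 CPM (log2 fold change -2.40, SE 0.19, adjusted p = 8.68e-14) and its relative Zfpm1 fell by 2.01 on the log2 scale. Gata2, another endothelial GATA factor, fell by 1.38, whereas Gata6 rose by 1.05, from 9.37 to 22.7 CPM.

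Over the 24 endothelial sums, log2(CPM + 1) of each member was compared with the mean of all 10. Pearson's r was 0.99 for Ptprb, 0.98 for Oit3, 0.97 for Gata4, F8 and Kdr, 0.95 for Stab2, 0.91 for Clec4g, 0.88 for Flt4, 0.64 for Stab1 and -0.05 for Lyve1, and each gene is itself part of the mean. Among 6830 genes outside the set with at least 20 CPM in L, the 8 most like the mean were Tmcc3, Igfbp7, Dnase1l3, Elk3, Itga1, Mrc1, 6030498E09Rik and Cd38, with r from 0.968 to 0.978. The points share libraries and sample types, and r within a sample type was not computed. All 8 genes were lower in PH, by 1.96 (Cd38) to 3.48 (6030498E09Rik) on the log2 scale against L. This follows from the choice, since they were picked for likeness to a mean that is itself lower in PH.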

How the data were processed

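The deposited matrices hold raw counts of UMIs per barcode and gene for spliced, unspliced and ambiguous RNA, which the authors quantified with Salmon, alevin and alevin-fry against GRCm38 after bcl2fastq 2.19.0. The authors' table of nuclei gives cluster, cell type, hashtag sample, Group and a hashtag margin as a deposited fraction, and no nucleus was added or removed. The authors had removed negatives and doublets by hashtag and by scDblFinder, and no doublet caller was run here. One hashtag, CD2, was read as the CS sample of mouse 2. Hashtag matrices were not used.

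The 3 states were added and summed per sample over endothelial nuclei (24 sums), and single classes used samples with at least 10 of their nuclei. Genes with at least 10 counts over all sums entered a quasi-likelihood fit (edgeR 4.0.16, R 4.3.3, TMM scaling, 1 coefficient per sample type, no covariate), with adjustment over all genes at 0.05. CPM of gene tests were TMM-scaled, and those of single classes were not. DESeq2 1.42.0 was used for an alternative fit, and Python 3.11.15 with numpy 2.4.6, scipy 1.17.1, pandas 2.3.3 and matplotlib 3.10.9 for the rest. Scripts were tested on simulated counts. Spliced shares were compared by two-sided exact permutation tests over samples with at least 10 spliced plus unspliced UMIs of the gene.

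Before shares of nuclei with a UMI were taken, each nucleus with at least 500 UMIs was thinned to 500 UMIs and the others were left out. Thinning to 300 UMIs in the same way and no thinning were the alternatives. The members and lists were chosen with earlier results of these data known. Named genes are the 10 members, the largest riser and the 2 largest fallers of each list between L and PH, Arhgap31 and Adgrf5, and the 8 genes most like the members; Mrc1, Fcgr2b, Hgf, Dll4, Cd36, Pecam1, Cdh5, Vegfa, Vegfc, Angpt2, Zfpm1, Gata2, Gata6 and Apln were added after their values were seen. Same-numbered samples come from the same mouse. Deviations from the type means over 3900 genes correlated with a median of 0.151 for the same mouse between L and CS (range -0.0821 to 0.272), 0.0223 between L and PH and 0.0881 between CS and PH. The sums are separate animals, but samples of 1 mouse share an animal.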

Additional observations from a re-analysis of the deposited data

Results flagged for a closer look

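Of 30 groups of 8 samples (10 genes in 3 sample types), 4 held a sample farther from its nearest neighbour than Dixon's 95% limit allows, where chance flags about 1 in 20 groups. Stab1 in L was highest in mouse 2, at 621 CPM against 459 CPM in the next sample. Oit3 in L was lowest in mouse 8, at 117 CPM against 176 CPM. Stab2 in PH was highest in mouse 7, at 1853 CPM against 1324 CPM, and Gata4 in PH was highest in the same sample, at 242 CPM against 152 CPM. That sample was the shallowest (95289 UMIs) and held 17 cluster 3 and 12 cluster 12 nuclei. With cluster 12 nuclei alone it was the lowest PH sample for Stab2 (587 CPM) and for Gata4 (31.7 CPM), resting on 37 and 2 UMIs.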

How the results depend on the processing

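The 9 members called lower in PH were called against L and against CS under RLE normalization, DESeq2, another filter on low counts, thinning, and the pool or the mouse as a term. With spliced UMIs alone 8 were called in both comparisons (Stab1 was lost). Without each mouse in turn, 8 to 9 were called lower in PH against L and 9 against CS. In these fits 5209 to 5969 genes were called in either direction against L, and 2905 to 3522 against CS. For spliced UMIs alone and for fits with samples left out, the share of all genes called lower is not given here. The counts of members in these fits are therefore read only as whether their calls held. Lyve1 in PH against L reversed with unspliced UMIs alone (-1.0). The number of genes called in PH against L was 6181, and 3818 with filterByExpr, 3421 with spliced UMIs alone, 3268 with the pool as a term and 2462 with sums thinned to the shallowest. Against CS it was 3656, and 1697 with spliced UMIs alone and 1864 with thinning. Between CS and L it was 712, and 325 with spliced UMIs alone, 334 with the pool as a term, 250 with thinning and 432 to 768 without each mouse (432 without mouse 1 and 469 without mouse 3). The lower numbers with thinning and with spliced UMIs alone come with fewer UMIs, and the cause of the others was not tested. The mouse as a replicate block, which pairs samples of 1 animal, changed no call of a member's level (5569, 3327 and 686 genes called in PH against L, PH against CS and CS against L). Leaving out PH mouse 7, or PH mice 4 and 7, was tried after seeing the data, and 9 members were called lower in each. Adjustment of the spliced shares over all genes was also chosen after seeing the data, in place of adjustment over the members alone, under which Stab1 and Kdr (CS against L) and Lyve1 (PH against CS) passed as well. In PH mouse 7, Clec4g, Oit3 and Lyve1 rested on 3, 5 and 7 UMIs, and Clec4g and Oit3 had under 35 UMIs in every PH sample. Thinning to 300 UMIs and no thinning, counted together, gave 49 shares of nuclei with a UMI of a member that moved by more than 1 SD between samples and 11 that did not.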

Other observations

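Some members were also read in other nuclei, where no test was made. Gata4 had a median of 383 CPM in stellate nuclei of L, 334 CPM in those of CS and 97.8 CPM in the cultured stellate cluster of PH (7 samples), against 53.9 CPM in hepatocyte nuclei of L. Stab1 and Stab2 had medians of 39.2 and 113 CPM in Kupffer nuclei of L and 1.84 and 9.76 CPM in hepatocyte nuclei of L, while Oit3 and Lyve1 were at 0 and 1.52 CPM in Kupffer nuclei. The summed endothelial markers (12 genes) had a median of 1209.5 CPM in Kupffer nuclei of L and 582 CPM in stellate nuclei of L, against 35.8 CPM in hepatocyte nuclei of L, and their part in these values was not tested.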
